A study of Sus scrofa with 12 samples.

Results

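The nuclear genes for subunits of oxidative phosphorylation were described in the Semimembranosus muscle, a muscle of the ham, of 6 pigs with high and 6 pigs with low intramuscular fat (IMF). Members were the genes of the count table whose pig Ensembl name begins with NDUFA, NDUFB, NDUFC, NDUFS, NDUFV, UQCR, COX4 to COX8 or ATP5, or is SDHA, SDHB, SDHC or SDHD. The 7 assembly factors that share these prefixes were left out. This gave 64 of the 25880 genes counted, of which 14857 carry a name. Of the members, 28 belong to complex I, 4 to complex II, 6 to complex III, 15 to complex IV and 11 to ATP synthase, with NDUFA4 and NDUFA4L2 placed in complex IV. Subunits that carry no name of this kind were not analysed here.

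All 12 pigs were purebred Italian Large White animals, untreated, reared in 1 station and chosen for the extremes of IMF, with 3 gilts and 3 barrows (castrated males) in each group by the labels and the study's methods. High IMF pigs were 234 to 244 days old and low IMF pigs 229 to 249 days old, and all weighed 150 to 160 kg. A library of polyadenylated RNA was sequenced for each pig, and its counts summed to between 131048805 and 178013997. Pigs 1 to 6 are the high IMF group and pigs 7 to 12 the low IMF group. The Y-linked genes EIF1AY and KDM5D went against the labelled sex in 6 pigs, pigs 3 and 5 of the high and pigs 7, 8, 9 and 10 of the low IMF group, so results are also given for the 4 high and 2 low IMF pigs that remain without them. Their counts were high in pigs 3, 4 and 6 of the high and pigs 9, 10 and 11 of the low IMF group, as many in each. Those that remain are pigs 1, 2, 4 and 6 against pigs 11 and 12. Pigs 1 and 2 had the lowest summed level of the members in the high IMF group, and the part of this in those results was not tested. Levels below are counts scaled to a common library size with TMM factors (CPM), and a log2FC is low over high IMF, so that a negative value is a higher level in high IMF.

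Oxidative phosphorylation takes place in the inner mitochondrial membrane. Complex I and complex II take electrons from NADH and succinate, complex III passes them from coenzyme Q to cytochrome c, and complex IV gives them to oxygen. The proton gradient built up by complexes I, III and IV drives ATP synthase. A small set of subunits is encoded by mitochondrial DNA and the rest by nuclear genes. In muscle, slow and oxidative fibres hold more mitochondria than fast glycolytic fibres. In whole muscle, fewer cells or fibres of a type and less RNA in each cannot be told apart.

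The members were spread over 18 chromosomes, with the most, 11, on chromosome 2. The transcription factors NRF1, GABP (of the ETS family), ERR and YY1 are known regulators of genes of this kind, and their core motifs were looked for in the 250 bases before the RefSeq start of each member on Sscrofa11.1, on both strands. The NRF1 motif (GCGCA, any base, then GCGC) was found in 8 of the 64 windows (12.5%) against 4.76% of 19501 windows of the same length before protein-coding genes. These are the RefSeq genes with a single position on a nuclear chromosome and no unknown base in the window. The ETS motif CCGGAAG was found in 17 (26.6%) against 7.78%, the ERR motif TCAAGGTCA in 2 (3.12%) against 0.333%, and the YY1 motif AAGATGGCG in 1 (1.56%) against 0.779%. At least 1 of these 4 motifs was present in 23 of the 64 windows, against 12.7% of all windows. A match is a description of the letters and not of binding.

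4 windows are printed because they show the range from no motif to several. COX7A1 and COX7A2 encode the muscle and the ubiquitous form of the same complex IV subunit, and their levels are compared below. The first holds none of the 4 motifs and the second holds an ETS and an NRF1 motif. COX5B, another complex IV subunit, holds an NRF1 and 2 ETS motifs, and ATP5MC3, a form of the ATP synthase c-ring subunit, holds an ERR and an ETS motif. Each is read 5′ to 3′ on the strand of its gene, from RefSeq positions on Sscrofa11.1, and capitals mark the motifs, some of which stand on the opposite strand. No motif overlaps another in them.
COX7A1, chr6:45520722-45520971, minus strand: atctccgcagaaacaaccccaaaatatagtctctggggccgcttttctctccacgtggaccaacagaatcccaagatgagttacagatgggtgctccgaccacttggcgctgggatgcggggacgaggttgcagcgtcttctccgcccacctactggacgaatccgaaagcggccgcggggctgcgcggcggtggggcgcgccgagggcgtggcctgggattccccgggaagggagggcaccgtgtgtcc
COX7A2, chr1:90696496-90696745, plus strand: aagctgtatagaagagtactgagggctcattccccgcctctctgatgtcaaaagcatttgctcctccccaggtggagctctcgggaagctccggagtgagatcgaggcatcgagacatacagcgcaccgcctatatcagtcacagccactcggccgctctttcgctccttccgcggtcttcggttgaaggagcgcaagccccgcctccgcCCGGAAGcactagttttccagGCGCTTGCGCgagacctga
COX5B, chr3:56632108-56632357, minus strand: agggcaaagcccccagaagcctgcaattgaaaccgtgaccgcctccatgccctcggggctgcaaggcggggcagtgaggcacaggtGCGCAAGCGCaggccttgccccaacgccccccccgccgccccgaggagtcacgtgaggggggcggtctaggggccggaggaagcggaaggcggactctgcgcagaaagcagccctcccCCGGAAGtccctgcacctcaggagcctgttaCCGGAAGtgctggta
ATP5MC3, chr15:81094298-81094547, minus strand: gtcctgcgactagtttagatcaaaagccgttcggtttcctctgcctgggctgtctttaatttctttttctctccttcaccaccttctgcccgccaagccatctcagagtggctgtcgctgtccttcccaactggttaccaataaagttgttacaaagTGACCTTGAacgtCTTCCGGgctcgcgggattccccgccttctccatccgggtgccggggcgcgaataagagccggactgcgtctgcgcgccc

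All 5 complexes were clearly present in the muscle. Together the members took from 0.498% to 0.751% of the counts of a pig. Of the 64, 63 had enough counts to be tested, and 61 of these had at least 1000 counts in every pig. Per kilobase of exon in the RefSeq gene models, the mean level over the 12 pigs was highest for COX7A1 at 399.6 CPM per kb and next for ATP5F1A, the catalytic-core α subunit of ATP synthase, at 331 CPM per kb. Complex I ranged from 21.0 CPM per kb for the NADH-binding subunit NDUFV1 to 190.4 CPM per kb for NDUFB9. Complex II ranged from 63.6 CPM per kb for the flavoprotein SDHA to 175 CPM per kb for the iron-sulfur subunit SDHB, and complex III from 38.8 CPM per kb for the core subunit UQCRC2 to 179.8 CPM per kb for UQCR10. Gene models differ in how many alternative exons and untranslated bases they hold, so these levels order the genes only roughly.

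The lowest levels were all in complex IV. COX6B2, known as the testis form of its subunit, had 59 counts over all 12 pigs and at most 0.0979 CPM, and was the one member too low to be tested. COX4I2 had 1.78 CPM per kb and NDUFA4L2 0.883 CPM per kb, against 156 CPM per kb for COX4I1 and 188 CPM per kb for NDUFA4. The order of COX4I2 and NDUFA4L2 rests on the gene model of NDUFA4L2, which holds 6639 exonic bases against 843 for COX4I2, and by CPM alone NDUFA4L2 had 5.86 and COX4I2 1.5.

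The question of the comparison was whether these genes differ between muscle of high and low IMF. In edgeR's quasi-likelihood test over 14262 genes, 0 of the 63 members tested were DEGs, that is, with an adjusted p of 0.05 or less together with a log2FC of 0.58 or more in size, beside 0% of all genes tested. 1 of the 63 members (1.59%) had an unadjusted p at or under 0.05, beside 10.4% of all genes tested, of which 5.38% were higher in low IMF and 5.04% higher in high IMF. DESeq2's Wald test on all genes called 0.315% of the 20341 genes with a count as DEGs and none of the 64 members, with 1 member at an unadjusted p at or under 0.05 beside 9.02% of these genes. limma-voom called 0 members, with 0 at an unadjusted p at or under 0.05. In the members, adjusted p by edgeR's quasi-likelihood test ran from 0.468 to 0.999. In none of the members did every pig of one group lie above every pig of the other, which held for 0.659% of all genes tested, 0.259% with low IMF above and 0.4% with high IMF above.

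The log2FC of the members ranged from -0.29 for NDUFA6 to 0.22 for COX4I1, with a median of -0.065 against -0.0083 over all genes tested. It was below 0 in 47 of the 63 (74.6%) beside 51.6% of all genes tested. The members share their pigs and move together from pig to pig, as described below, so these are not 63 separate observations. This direction depended on which pigs were kept. The number below 0 was 60 of 63 without pig 7, 35 without pig 8 and 34 without pig 9. The median stayed below 0 with single pigs left out, from -0.16 without pig 7 to -0.0041 without pig 9, but was 0.075, with 14 of 64 below 0, without the 6 pigs whose Y-linked counts go against the labelled sex.

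The data bounded a difference more than they showed one. The 95% interval of the log2FC lay within 0.58 of 0, that is within a change of 1.5-fold, for 57 of the 63 members (90.5%) beside 49% of all genes tested. The 6 exceptions were NDUFA6, NDUFB9, SDHC, UQCRC2, COX4I2 and NDUFA4L2. The median SE of the log2FC was 0.16 over the members and 0.18 over all genes tested.

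**Figure D1:**
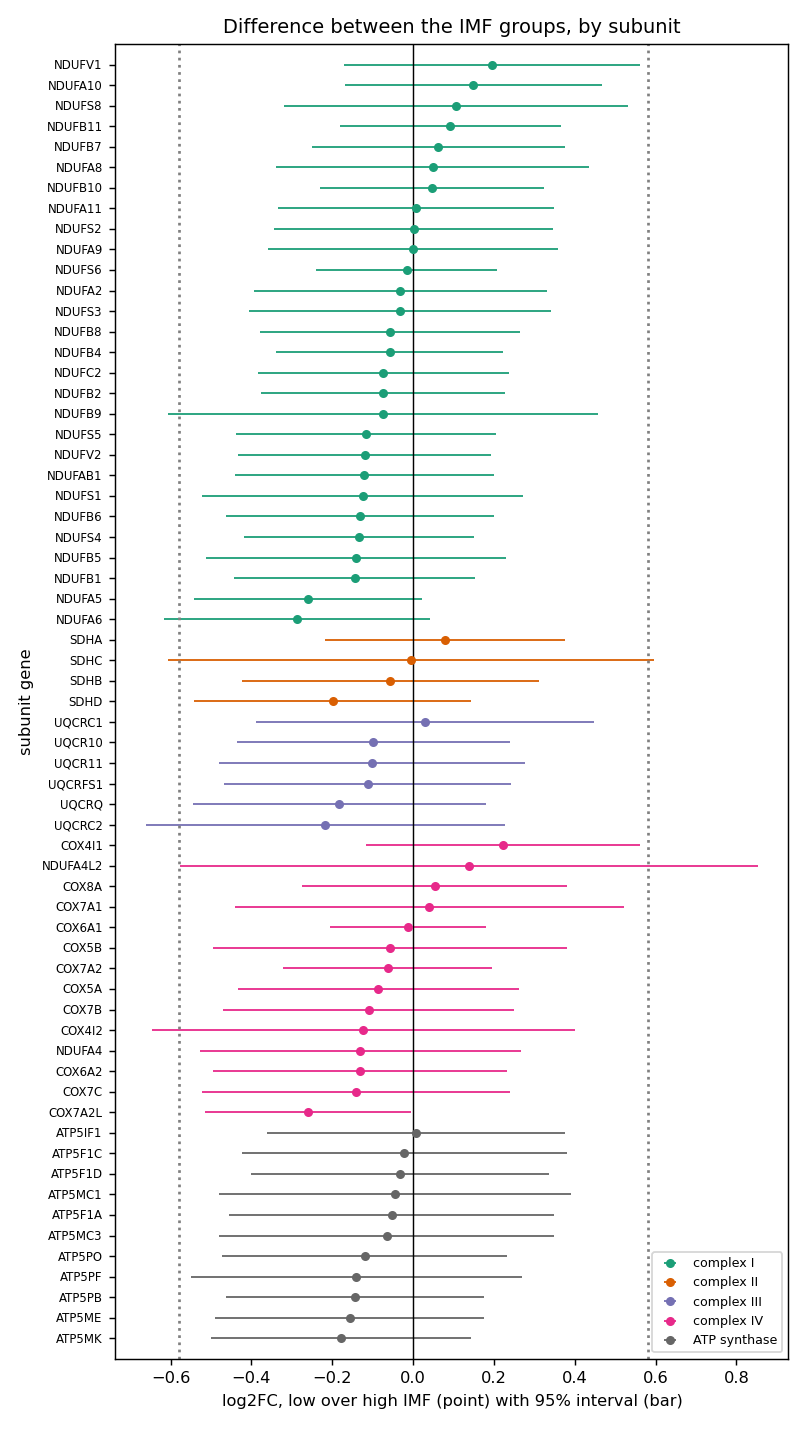
The log2FC of each of the 63 members tested, low over high IMF (horizontal axis), is drawn as a point with its 95% interval as a bar, coloured by complex; the dotted lines stand at -0.58 and 0.58. All intervals except that of COX7A2L include 0, and 57 of 63 lie between the dotted lines.

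Complex I feeds electrons from NADH into the chain. Of its 28 subunits, 0 had a p at or under 0.05, 19 had a log2FC below 0, and the median was -0.058. The smallest p were those of NDUFA5, NDUFA6 and NDUFV1. NDUFA5, an accessory subunit, had levels of 70.9, 97.3 and 107.8 CPM (lowest, median and highest pig) in high IMF and of 64.1, 74.9 and 91.5 CPM in low IMF. The ranges overlap, with a log2FC of -0.26 ± 0.13 (SE) and, by edgeR's quasi-likelihood test, an adjusted p of 0.505.

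NDUFA6, another accessory subunit, had 15.8, 22.5 and 28.1 CPM in high IMF and 14.3, 18.4 and 21.3 CPM in low IMF. It is the one member highest in pig 1, a pig in which nearly all others were low. NDUFV1 had 29.1, 30.0 and 36.9 CPM in high IMF and 26.9, 33.0 and 58.8 CPM in low IMF. The highest low IMF value is that of pig 7, and without this pig the log2FC of 0.20 was -0.00090.

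The complex I subunits with the most CPM were NDUFS1, NDUFB10 and NDUFB9. NDUFS1, the large iron-sulfur subunit, had 149.9, 219 and 263 CPM in high IMF and 127, 198 and 246 CPM in low IMF. NDUFB10 had medians of 154 CPM in both groups. NDUFB9 had 92.2, 147 and 163.5 CPM in high IMF and 68.3, 135 and 188 CPM in low IMF. Its values followed those of its complex in part. It was highest in pig 7 and lowest in pigs 8 and 9, as the complex I sum was, but departed in pigs 2 and 6. Pig 6 stood at 92.6 CPM and pig 2 at 139.9 CPM, where most subunits were higher in pig 6 than in pig 2.

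Complex II, succinate dehydrogenase, is also an enzyme of the tricarboxylic acid cycle. None of its 4 subunits, all nuclear, had a p at or under 0.05. SDHA had 136, 168 and 208 CPM in high IMF and 129.9, 175 and 229 CPM in low IMF. SDHB had 111, 161 and 177 CPM in high IMF and 107, 133 and 209 CPM in low IMF.

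The membrane anchors of complex II differed from each other in how they varied. SDHD had 116.5, 174 and 202 CPM in high IMF and 106, 140.5 and 170.1 CPM in low IMF, with the smallest p of the complex (log2FC -0.20 ± 0.16, SE; adjusted p 0.685 in edgeR's quasi-likelihood test). SDHC had 49.0, 124 and 176 CPM in high IMF and 74.9, 111 and 160.5 CPM in low IMF. Its lowest pigs were pig 2 at 49.0 CPM, pig 11 at 74.9 CPM and pig 3 at 83.9 CPM, of which pigs 3 and 11 were high for most members. Its log2FC was -0.0054 ± 0.28 (SE), so that a difference of 0.58 lay inside the interval.

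Complex III, the cytochrome bc1 complex, had 0 of 6 subunits at a p at or under 0.05, 5 with a log2FC below 0, and the lowest median of the complexes, -0.11. UQCRC2 had 138, 245 and 267 CPM in high IMF and 125, 182 and 243 CPM in low IMF, with a log2FC of -0.22 ± 0.21 (SE). The Rieske iron-sulfur protein UQCRFS1 had 168.5, 249 and 266 CPM in high IMF and 151.9, 207 and 281 CPM in low IMF. UQCRQ had medians of 118.5 CPM in high IMF and 94.3 CPM in low IMF.

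The other core subunit, UQCRC1, had a log2FC of 0.029 ± 0.19 (SE), with medians of 199 CPM in high IMF and 179 CPM in low IMF. Its highest value, 282 CPM, was that of pig 7. In all 6 subunits the ranges of the groups overlapped.

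Complex IV, cytochrome c oxidase, held the one member with a p at or under 0.05. COX7A2L, also known as SCAF1, is a relative of the COX7A subunits that is known for joining complexes III and IV into supercomplexes. It had 12.2, 16.1 and 19.6 CPM in high IMF and 12.0, 13.1 and 13.9 CPM in low IMF. Pigs 3, 4, 5 and 6 stood above all low IMF pigs, while pigs 1 and 2 lay among them. The means were 15.7 ± 2.84 and 13.1 ± 0.721 CPM (SD, n = 6 each), with a log2FC of -0.26 ± 0.12 (SE), a p of 0.0452 and, by edgeR's quasi-likelihood test, an adjusted p of 0.468. The unadjusted p rose above 0.05 without any one of pigs 3, 4, 5, 6, 7, 8, 9, 10 and 12, reaching 0.118 without pig 4, and it was 0.414 without the 6 pigs against their labelled sex. A share of 1 in 63 members at this threshold is below the share over all genes.

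Of the 14 complex IV members tested, 10 had a log2FC below 0 and the median was -0.075. COX4I1, the core regulatory subunit IV, had the highest log2FC of all members, 0.22 ± 0.16 (SE). Its values were 98.9, 133 and 151.5 CPM in high IMF and 121, 138 and 230.4 CPM in low IMF. The highest was pig 7, and without it the log2FC was 0.069.

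COX7C, COX7B and NDUFA4 had the most CPM of complex IV. COX7C had 169, 284 and 334 CPM in high IMF and 169.7, 243.5 and 294 CPM in low IMF. COX7B had medians of 164 and 137 CPM, and NDUFA4, once assigned to complex I, of 212 and 181.5 CPM. The adjusted p of these 3 genes ran from 0.816 to 0.857 in edgeR's quasi-likelihood test.

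ATP synthase had 0 of 11 members at a p at or under 0.05 and 10 of 11 with a log2FC below 0, with a median of -0.065. All 11 intervals lay within 0.58 of 0. ATP5F1A had the highest CPM of all members, with 438, 676 and 751 CPM in high IMF and 415, 637 and 754 CPM in low IMF. Its log2FC was -0.053 ± 0.19 (SE).

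Within ATP synthase, the stalk subunits ATP5PB and ATP5PO had the next highest CPM. ATP5PB had 169.96, 244.5 and 264 CPM in high IMF and 163, 197 and 255 CPM in low IMF, and ATP5PO had medians of 212 and 176 CPM. The smallest p of the complex were those of ATP5MK, ATP5ME and ATP5PB. ATP5MK and ATP5ME are small membrane subunits, and their medians were 81.2 and 62.8 CPM for ATP5MK and 50.2 and 43.4 CPM for ATP5ME. ATP5IF1, the inhibitor that blocks ATP hydrolysis when the proton gradient is lost, had a log2FC of 0.0067 ± 0.17 (SE).

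Several subunits exist as a pair of genes, and the ratio within a pair is nearly free of the scaling of the library. 5 pairs could be formed, and the log2 ratio of each was compared between groups with a two-sided exact permutation test over all arrangements of the 12 pigs into groups of 6, adjusted by the Benjamini-Hochberg method over the 5. None passed, and all 5 had an adjusted p of 0.753. The intervals below are those of shifts that the same exact test does not reject at 0.05.

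COX7A1 is the heart and muscle form and COX7A2 the form found in most tissues. COX7A1 had 90.2, 138 and 163 CPM in high IMF and 85.9, 119 and 219.7 CPM in low IMF. COX7A2 had 13.5, 18.1 and 20.5 CPM in high IMF and 14.04, 17.7 and 18.1 CPM in low IMF. Over the 12 pigs the first ranged over 2.56-fold and the second over 1.52-fold. The log2 ratio of COX7A1 to COX7A2 was 2.87 ± 0.22 in high IMF and 2.94 ± 0.37 in low IMF (SD, n = 6 each), a difference of 0.065 with an interval from -0.31 to 0.47. It was lowest at 2.61, 2.63 and 2.60 in pigs 9, 2 and 12, with 961, 1033 and 1176 CPM summed over complex IV. It was highest at 3.21 and 3.60 in pigs 5 and 7, with 1597 and 1714 CPM. The pigs between did not all keep this order. Pig 6 had a ratio of 2.71 at 1436 CPM, pig 8 one of 2.86 at 1119 CPM and pig 1 one of 2.74 at 1002 CPM. The complex IV sum includes COX7A1 and COX7A2, so it is not separate from the ratio. Per kilobase of exon the mean levels were 399.6 CPM for COX7A1 and 35.98 CPM for COX7A2.

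COX6A2 and COX6A1 are a second such pair, of muscle and ubiquitous form. COX6A2 had 109, 149 and 187 CPM in high IMF and 108, 119 and 201 CPM in low IMF. COX6A1 was the steadiest of all members tested, with 34.8, 35.98 and 42.6 CPM in high IMF and 33.1, 36.5 and 43.3 CPM in low IMF, a range of 1.31-fold over the 12 pigs. The log2 ratio was 1.95 ± 0.29 in high IMF and 1.82 ± 0.39 in low IMF (SD, n = 6 each), a difference of -0.13 with an interval from -0.52 to 0.33. Pig 7 had the highest ratio, 2.60, and also the highest COX6A2 and the lowest COX6A1 of all pigs.

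COX4I2 and NDUFA4L2 are forms known to rise when oxygen is low, and both were scarce. COX4I2 had 0.896, 1.58 and 2.15 CPM in high IMF and 0.940, 1.61 and 1.68 CPM in low IMF, and its log2 ratio to COX4I1 differed by -0.28 with an interval from -0.95 to 0.38. NDUFA4L2 had the widest spread of all members tested, with 2.43, 5.70 and 8.34 CPM in high IMF and 1.93, 6.44 and 9.82 CPM in low IMF. Pigs 8 and 2 were its highest and pigs 7 and 6 its lowest, while most members were low in pigs 8 and 2 and high in pig 7. Its log2 ratio to NDUFA4 was -5.17 ± 0.77 in high IMF and -4.98 ± 1.06 in low IMF (SD, n = 6 each), a difference of 0.19 with an interval from -1.0 to 1.35.

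ATP5MC1 and ATP5MC3 encode the same mature c subunit of ATP synthase with different import sequences. ATP5MC1 had 79.96, 124 and 135 CPM in high IMF and 70.8, 111 and 153 CPM in low IMF, and ATP5MC3 had 72.2, 115 and 123 CPM in high IMF and 68.0, 98.6 and 145 CPM in low IMF. Their log2 ratio was the narrowest of the 5, from 0.030 to 0.17 in high IMF and from -0.074 to 0.26 in low IMF. The difference was 0.019 with an interval from -0.10 to 0.14.

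**Figure D2:**
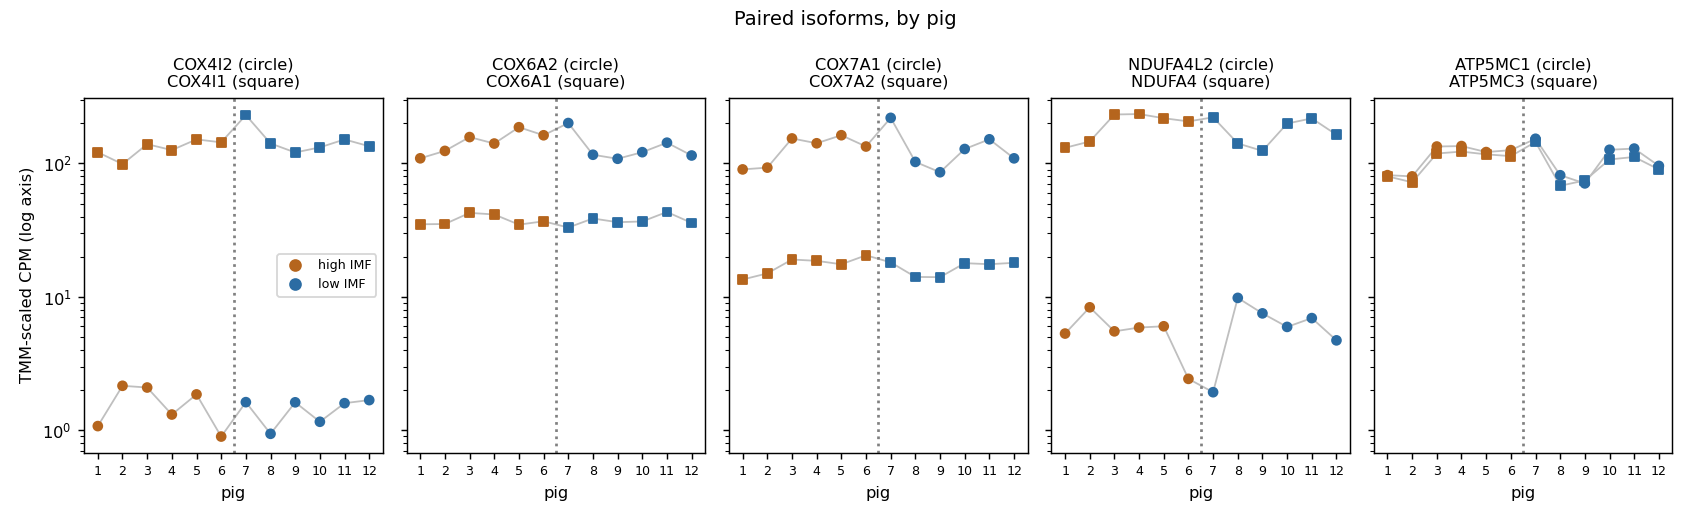
TMM-scaled CPM (vertical log axis) of the genes of the 5 pairs in each of the 12 pigs (horizontal axis), with high and low IMF pigs in different colours; the lines only guide the eye. COX7A1 and COX6A2 vary from pig to pig more than COX7A2 and COX6A1 do, and ATP5MC1 and ATP5MC3 run side by side.

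The members varied mainly between pigs of the same group, and they varied together. Their summed level was 5037, 4937, 7421, 7306, 7547 and 6986 CPM in pigs 1 to 6 and 8224.5, 5174, 4608, 6648, 7014 and 5756 CPM in pigs 7 to 12. Pigs 1 and 2 of the high IMF group and pigs 8, 9 and 12 of the low IMF group were the lowest, and pigs 7, 5 and 3 the highest. The group means were 6539 ± 1217 CPM in high IMF and 6237 ± 1322 CPM in low IMF (SD, n = 6 each), so that the groups differed by less than the spread between pigs. The log2 of the ratio of the means, low over high, was -0.068. It was -0.16 without pig 7, 0.0053 without pig 9, and 0.074 without the 6 pigs against their labelled sex.

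The 5 complexes had nearly the same profile over the pigs. Summed complex I ranged from 1367 CPM in pig 9 to 2401 CPM in pig 7, complex III from 579 to 1115 CPM, complex IV from 961 to 1714 CPM and ATP synthase from 1264 to 2231 CPM, with pig 9 lowest and pig 7 highest in each. Complex II ranged from 428 CPM in pig 2 to 763 CPM in pig 7. The widest fold between pigs was that of complex III, 1.93, and the narrowest that of complex I, 1.76. The log2 of the ratio of the group means was -0.055 for complex I, -0.044 for complex II, -0.11 for complex III, -0.059 for complex IV and -0.076 for ATP synthase, each smaller than the SD of the log2 sums within groups, which ran from 0.26 to 0.34.

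**Figure D3:**
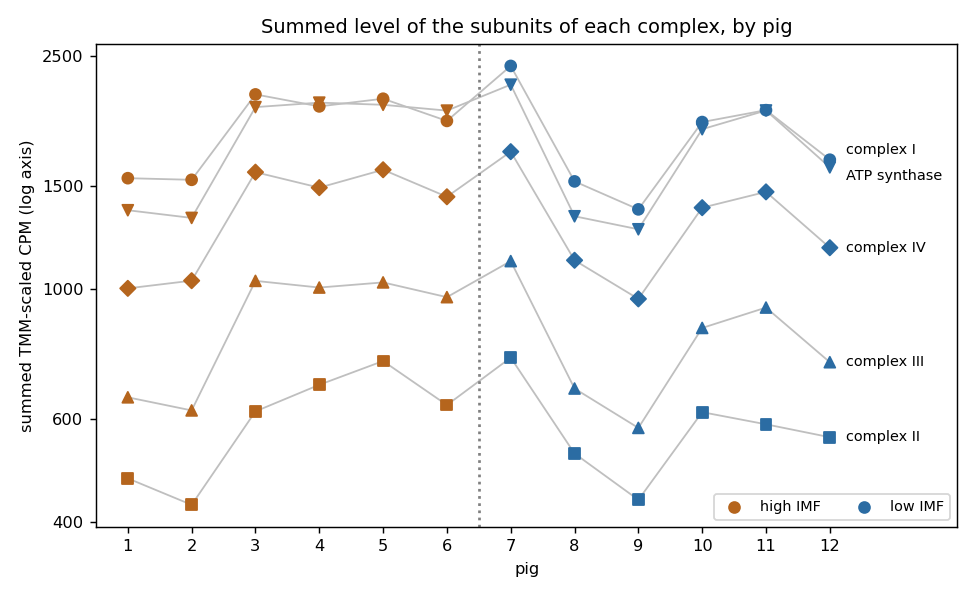
Summed TMM-scaled CPM of the members of each complex (vertical log axis) in each pig (horizontal axis), high IMF left and low IMF right of the dotted line; the lines only guide the eye. The 5 complexes rise and dip in the same pigs, with pigs 1 and 2 low among the high IMF pigs, pigs 8 and 9 low among the low IMF pigs, and pig 7 highest.

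The same held gene by gene. In pigs 1 and 2, 61 of the 63 members tested (96.8% in each) lay below their own median over the 12 pigs, where 49.7% and 48.8% of all genes tested did. In pig 9 it was 60 of 63 (95.2% against 50.3%), in pigs 8 and 12 it was 55 (87.3% against 49.4% and 50%), and in pig 11 it was 5 (7.94% against 50.2%). Pig 9 was the lowest pig for 46 of the 63 members and pig 7 the highest for 34. The exceptions were few. Pig 7 was the lowest pig for COX6A1 and NDUFA4L2, pig 1 the highest for NDUFA6, pig 2 for COX4I2 and pig 8 for NDUFA4L2.

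The place of pig 7 depended on the scaling. Its TMM factor, 0.81, was the lowest of the 12, the others lying between 0.918 and 1.12. In CPM of the total count without TMM, its summed level was 6661 CPM, between the 4985 CPM of pig 9 and the 7506 CPM of pig 4, and 25 members rather than 9 lay below their median in it. Pigs 1, 2, 8 and 9 stayed low without TMM, with 58, 61, 50 and 59 members below their median, while pig 12 moved from 55 to 33 and pig 10 from 32 to 53. The widest fold between pigs of the summed level was 1.785 with TMM and 1.51 without.

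Gene by gene, the members were not more variable than all genes tested, which were not matched to them by level. The SD of the log2 CPM within groups had a median of 0.30 over the 63 members and 0.32 over all genes tested. It ran from 0.13 for COX6A1 to 0.71 for NDUFA4L2, followed by 0.57 for SDHC and 0.50 for NDUFB9. For summed levels, the SD of the log2 sum within groups was 0.30 for the members. In the pathway lists described below it ran from 0.14 for the mitochondrial ribosome to 0.34 for the mitochondrial genome. It was 0.15 for the assembly factors and 0.19 for the cytosolic ribosome.

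**Figure D4:**
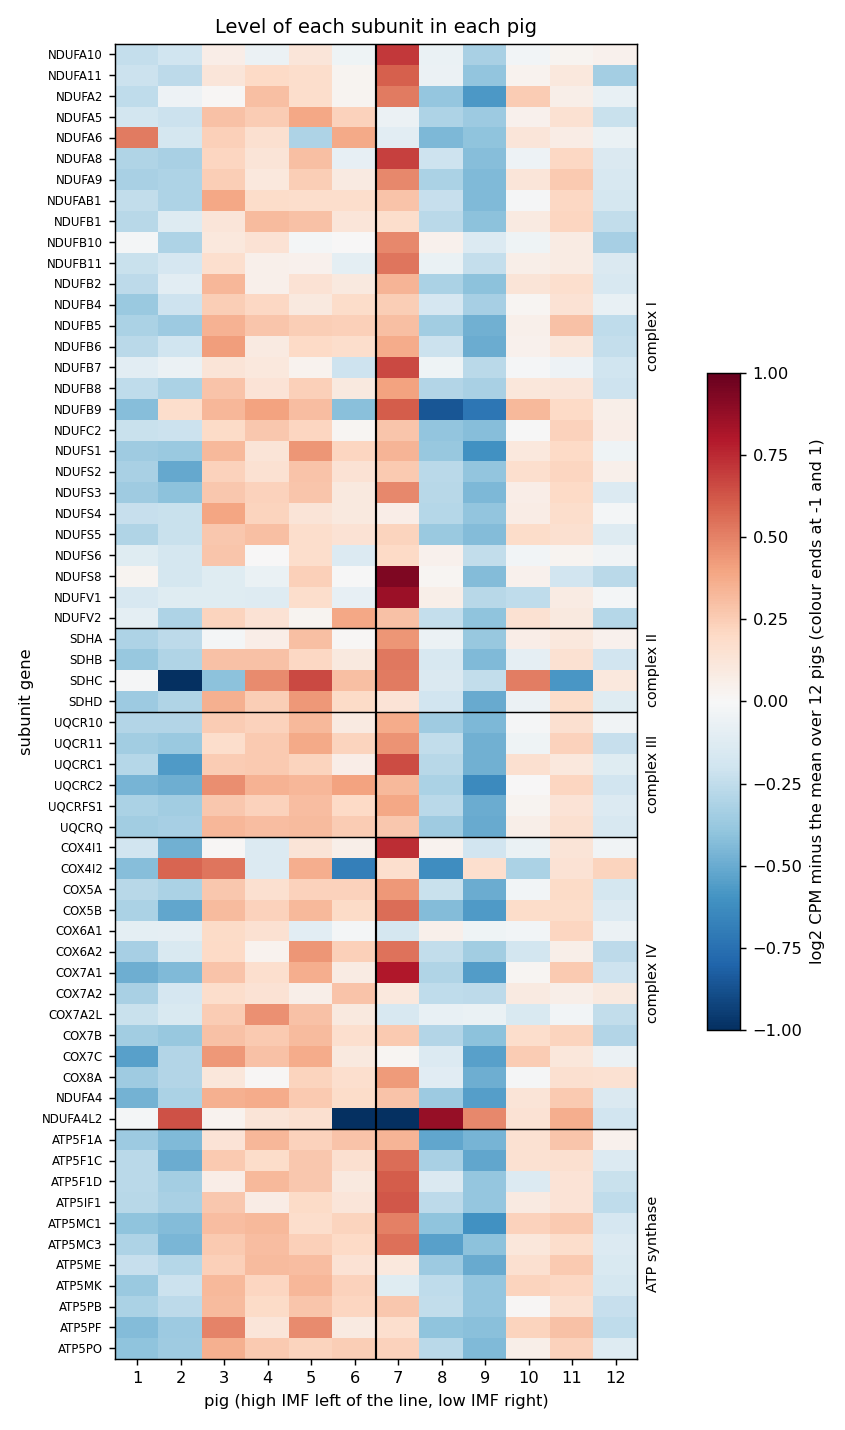
Each row is a member, each column a pig, and the colour is the log2 CPM minus the mean of that gene over the 12 pigs, from blue (lower) to red (higher), with the colour scale ending at -1 and 1. Most rows share the columns of pigs 1, 2, 8 and 9 in blue and of pigs 3 to 5 and 7 in red, while SDHC, NDUFB9, NDUFA6, COX4I2, COX6A1 and NDUFA4L2 depart from this.

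The other genes of the pathway were read from lists by name. Over 203 genes tested in 8 lists, 10 (4.93%) had an unadjusted p at or under 0.05, beside 10.4% of all genes tested, and 0 were DEGs. Of the 10, 7 were higher in high IMF and 3 in low IMF. The share is below that over all genes. By edgeR's quasi-likelihood test the smallest adjusted p was 0.367. The 10 genes were 4 assembly factors, 3 subunits of the mitochondrial genome, 1 enzyme of the tricarboxylic acid cycle and 2 regulators. Neither of CYC1 and CYCS, the cytochromes c1 and c, had a p at or under 0.05, with a log2FC of 0.15 ± 0.16 (SE) for CYC1 and -0.27 ± 0.16 (SE) for CYCS.

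The 13 subunits encoded by mitochondrial DNA all had a log2FC below 0, beside 51.6% of all genes tested. It ran from -0.47 ± 0.77 (SE) for ATP8 to -0.18 ± 0.19 for ND4L, with a median of -0.33. ATP8 had 431, 362 and 520 CPM in pigs 1, 2 and 10 and at most 76.8 CPM in the other pigs. Of the 13, 3 had a p at or under 0.05, beside 5.04% of all genes tested in this direction. ND3, ND5 and ND6, subunits of complex I, had unadjusted p of 0.0454, 0.0279 and 0.0310, with adjusted p from 0.441 to 0.469 in edgeR's quasi-likelihood test. ND5 had 1193 ± 238 CPM in high IMF and 921 ± 164 CPM in low IMF, and ND6 had 307 ± 71.1 CPM and 231 ± 46.3 CPM (SD, n = 6 each). These 13 genes are read from 1 genome and are not separate observations, and how well a polyadenylated library takes up each of them was not tested. All 13 stayed below 0 under each scaling and filter tried and without any single pig except pig 1 (12 of 13), with 12 of 13 when labelled age was a term and 11 of 13 without the 6 pigs against their labelled sex. The number at a p at or under 0.05 was 10 without pig 10 and 0 without any one of pigs 3, 6, 8 and 9.

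Their summed level had the profile of the nuclear members only in part. Pigs 8 and 9 were low in both sums, and pigs 3, 4 and 5 were among the higher pigs in both. It was 38326, 37072, 43816, 42692, 48328 and 54489 CPM in pigs 1 to 6 and 39366, 23186, 25658, 52256, 37546 and 35270 CPM in pigs 7 to 12. Pigs 8 and 9 had the lowest mitochondrial sums, and pigs 9, 2 and 1 the lowest nuclear sums. Pig 6 had the highest mitochondrial sum, and it was also the highest pig for the macrophage and the erythroid markers described below; their part in this sum was not tested. Pigs 1 and 2, the lowest of the high IMF group in both sums, were relatively closer to its other pigs for the mitochondrial genome, and pig 7, highest for the nuclear sum, lay near the middle. The genes within this sum differed. COX1, the largest, had 16770 and 17130 CPM in pigs 1 and 2, against 22493 to 29258 CPM in pigs 3 to 6. ATP6, ND3, ND4, ND4L and ND6 were also lower in both pigs than in each of pigs 3 to 6. ND1, ND2 and ATP8 were higher in both, and COX2, COX3, CYTB and ND5 were mixed.

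The factors that help to build the complexes had 4 of 44 genes (9.09%) at a p at or under 0.05, all higher in high IMF, beside 10.4% of all genes tested in either direction and 5.04% in this one, and a median log2FC of -0.061. They were the copper chaperone COX17 (log2FC -0.22 ± 0.093, SE), COA4 (-0.47 ± 0.17), TMEM70 of ATP synthase assembly (-0.26 ± 0.12) and LYRM7 of complex III assembly (-0.35 ± 0.16), with adjusted p from 0.431 to 0.468 in edgeR's quasi-likelihood test. Without the 6 pigs against their labelled sex none of the 4 kept a p at or under 0.05, with log2FC of -0.024 for COX17, -0.30 for COA4, -0.097 for TMEM70 and -0.23 for LYRM7. Of the 13 enzymes of the tricarboxylic acid cycle, OGDH, the 2-oxoglutarate dehydrogenase, was higher in low IMF with 235 ± 45.1 CPM against 167 ± 21.2 CPM (SD, n = 6 each), a log2FC of 0.49 ± 0.13 (SE), a p of 0.00235 and, by edgeR's quasi-likelihood test, an adjusted p of 0.367. The lowest of the 6 low IMF pigs lay above the highest of the 6 high IMF pigs for this gene, which held in this direction for 0.259% of all genes tested. Without the 6 pigs against their labelled sex its log2FC was 0.26 with an unadjusted p of 0.173. Citrate synthase, CS, had a log2FC of -0.071 ± 0.17 (SE).

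Among 13 transcriptional regulators, PPARGC1A and YY1 had a p at or under 0.05. PPARGC1A encodes PGC-1α, the coactivator known for driving mitochondrial biogenesis. It had 110.3 ± 33.6 CPM in high IMF and 209 ± 114 CPM in low IMF (SD, n = 6 each), with a log2FC of 0.92 ± 0.35 (SE), a p of 0.0197 and, by edgeR's quasi-likelihood test, an adjusted p of 0.434. Its level in the single pigs did not order them as the members did. Pig 12 had 279 CPM of PPARGC1A and pig 10 had 70.8 CPM, with 5756 and 6648 CPM of the members, while pig 7 was highest in both, at 392 CPM and 8224.5 CPM. Without pig 7 the log2FC of PPARGC1A was 0.65 with an unadjusted p of 0.0628. YY1 had a log2FC of 0.27 ± 0.12 (SE) with an adjusted p of 0.452. Without the 6 pigs against their labelled sex PPARGC1A had a log2FC of 1.21 with an unadjusted p of 0.00789 and YY1 one of 0.027 with 0.884. The regulators NRF1, ESRRA and TFAM had log2FC of -0.19 ± 0.10, 0.044 ± 0.15 and -0.11 ± 0.12 (SE).

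The remaining lists had 0 genes at a p at or under 0.05. These were 10 genes of coenzyme Q synthesis with a median log2FC of -0.0042, the mitochondrial ribosome with 63 genes tested and a median of -0.044, and the cytosolic ribosome with 45 genes and a median of -0.0042. Their smallest p were those of COQ3 (log2FC -0.19) and COQ8A (0.25), of MRPS35 (-0.23) and MRPS30 (-0.15), and of RPL23 (-0.18) and RPS9 (0.16). The widest fold between pigs of the summed level was 1.32 for the mitochondrial ribosome, 1.36 for the assembly factors and 1.67 for the cytosolic ribosome, against 1.785 for the members.

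The libraries had the markers of skeletal muscle, with 30445 to 45021 CPM summed over 8 named markers of fast fibres. Slow-fibre markers moved with the members in part. Of 10 looked for, 6 carried a name, TNNC1, ATP2A2, TNNT1, MYL3, TNNI1 and MYL2, and none was at 0. Their sum was 1941, 2904, 2813, 4566, 5054 and 4361 CPM in pigs 1 to 6 and 5975, 2522, 2413, 2325, 4478 and 1393 CPM in pigs 7 to 12. Pig 7 was the highest in both sums, and pigs 4, 5, 6 and 11 were high in both. Pigs 2, 3 and 10, with 2904, 2813 and 2325 CPM of slow-fibre markers, were exceptions, at 4937, 7421 and 6648 CPM of the members. The part of fibre type in the level of the members was not tested. None of the slow-fibre markers had a p at or under 0.05 between groups, and the medians of their sums were 3632 CPM in high IMF and 2468 CPM in low IMF.

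**Figure D5:**
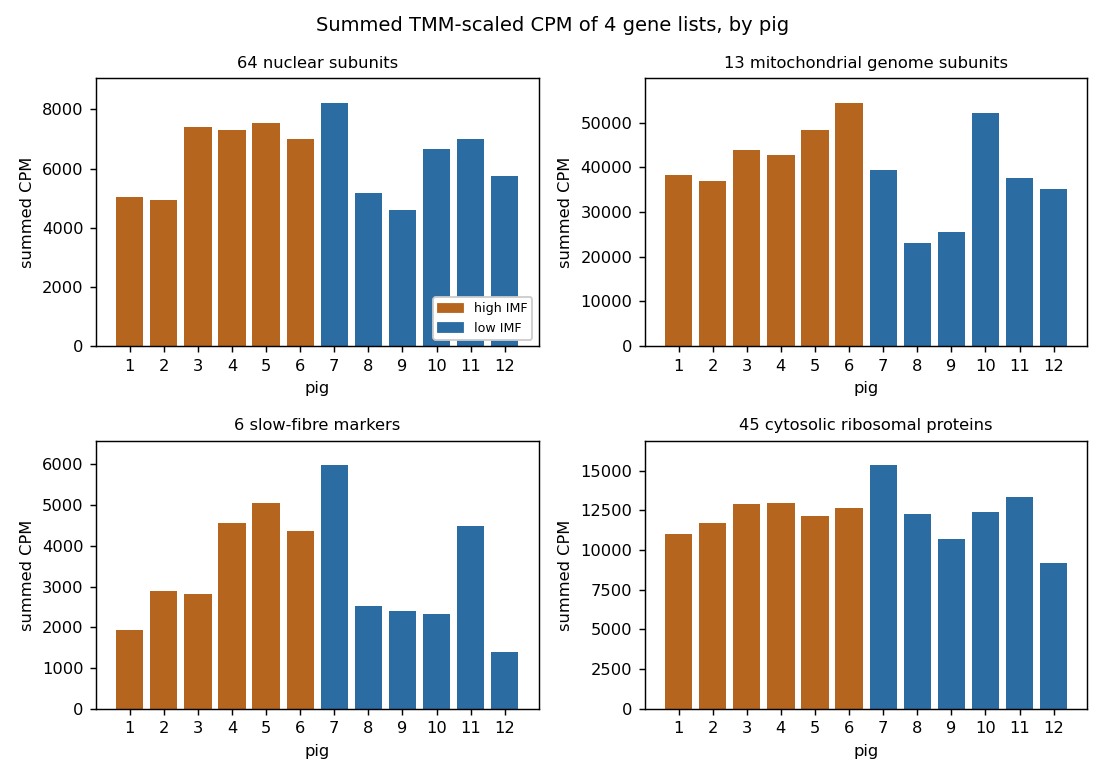
Summed TMM-scaled CPM (vertical axes, from 0) of the 64 nuclear members, the 13 mitochondrial genome subunits, 6 slow-fibre markers and 45 cytosolic ribosomal proteins in each pig. Pigs 1 and 2 are low for the nuclear members and less so for the mitochondrial genome, and pig 7 is highest in all panels except that of the mitochondrial genome.

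The markers of other cells were read from the same test. Of 10 named adipocyte markers, 0 had a p at or under 0.05. A log2FC above 0 was found in 7 of them and below 0 in 3, beside 51.6% of all genes tested below 0. Their median log2FC was 0.10, towards low IMF. Their sum ran from 1311 to 1604 CPM in high IMF and from 1171 to 1709 CPM in low IMF. How far these markers follow the number of adipocytes in the muscle was not tested. The other lists had 1 gene each at a p at or under 0.05, except the erythroid one with 0 of 3. These were ATP2A1 of fast fibres (log2FC 0.46), CDH5 of endothelium (0.55), AIF1 of macrophages (-0.46) and PDGFRA of fibro-adipogenic cells (-0.42), with adjusted p from 0.367 to 0.463 in edgeR's quasi-likelihood test. The median log2FC of their lists was 0.11, 0.16, -0.26 and 0.30 in the same order. PDGFRA thus went against its list, in which 4 of 7 genes had a log2FC above 0. ATP2A1 had 5182 ± 895 CPM in high and 7137 ± 889.7 CPM in low IMF, and CDH5 had 22.3 ± 5.10 and 32.5 ± 6.00 CPM (SD, n = 6 each). Both differences were larger than the SD within groups, but the ranges of the groups overlapped for both genes. AIF1 and PDGFRA were highest in pig 6, at 2.29 and 41.9 CPM, and without it their log2FC were -0.30 and -0.22. Without the 6 pigs against their labelled sex the 4 genes had unadjusted p from 0.0938 to 0.288. In high IMF the summed levels ran from 79.9 to 184 CPM for 8 macrophage markers, from 97.9 to 131.2 CPM for 5 endothelial markers, from 1101 to 2252 CPM for 7 fibro-adipogenic markers and from 41.3 to 631 CPM for 3 erythroid markers, where pig 6 had 631 CPM and the next pig 84.8 CPM. Pig 6 also had the 184 CPM of macrophage markers. In low IMF they ran from 89.2 to 158 CPM, from 102 to 166 CPM, from 1702 to 2698 CPM and from 42.5 to 122 CPM in the same order. No named marker was at 0 in all pigs.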

How the data were processed

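RNA of Semimembranosus muscle was sequenced for 12 pigs, 6 of high and 6 of low IMF by the labels. Per the study's methods, reads were trimmed with Trimmomatic, aligned to Sscrofa11.1 with HISAT2 and assembled with StringTie, and HTSeq counted them per Ensembl gene. The authors deposited these counts as whole numbers without normalization. Which annotation release and strand option were used and how multi-mapping reads were treated are not given in the sources used here, so overlapping genes and near-identical copies are uncertain, and slaughter days and shared lanes were not analysed here. Each pig is a separate animal and 1 replicate.

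Genes kept by filterByExpr were TMM-scaled and compared with edgeR's quasi-likelihood test (edgeR 4.0.16, R 4.3.3; group the only term, 10 residual degrees of freedom, common biological coefficient of variation 0.332), adjusted by Benjamini-Hochberg over 14262 genes; the step was tested on simulated data. Log2 ratios were formed after adding a prior count of 2. Other runs used DESeq2 1.42.0, limma-voom 3.58.1, other scalings and filters, labelled sex or age as a term, and pigs left out. Positions came from RefSeq by symbol (40 members), older symbol (11) or product name (13). Members, lists and tests were chosen with earlier results of these data known. Named are, per complex, the 3 members of highest level and of smallest p, all isoform pairs, the 3 of widest spread, and any member or listed gene with p at or under 0.05 or not tested (else the 2 smallest p of a list); other genes named were chosen after their values were seen. At these depths the spread between pigs, not counting error, sets the precision.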

Additional observations from a re-analysis of the deposited data

Results flagged for a closer look

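In the groups of 6 pigs, 4 values lay so far from the rest that the gap passed Dixon's 95% critical value, out of 86 groups looked at, where chance flags about 1 in 20 groups. Pig 7 of the low IMF group had 230.4 CPM of COX4I1, where the next pig had 151 CPM, and 58.8 CPM of NDUFV1, where the next had 34.4 CPM. Pig 7 also had a log2 ratio of COX6A2 to COX6A1 of 2.60, where the next was 1.73. Pig 5 of the high IMF group had 36.9 CPM of NDUFV1, where the next had 30.7 CPM. Pig 7 has the lowest TMM factor of the 12 pigs. Pigs 5 and 7 both have Y-linked counts against their labelled sex. The part of these in the values was not tested, and the ratio within a pair is nearly free of the TMM factor. No sum over a complex was flagged.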

How the results depend on the processing

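No paired analysis was possible because the labels number the pigs 1 to 12 and the groups share no numbers. The number of DEGs over all genes was 0 with edgeR's quasi-likelihood test under every other scaling, filter and covariate tried and with limma-voom, 59 with DESeq2 on the same genes, 64 with DESeq2 on all genes, and 0 to 1 with each pig left out; none was a member in any of these. Members with a p at or under 0.05 numbered 1 with edgeR's quasi-likelihood test, 0 with limma-voom, 0 without the 6 pigs against their labelled sex, and 0 to 3 with each pig left out (3 without pig 2). Other genes of the pathway at this threshold numbered 10, and 3 to 17 with each pig left out (3 without pig 9, 17 without pig 2 or pig 10). Without the pigs against their labelled sex the difference in the log2 ratio of COX4I2 to COX4I1 was 0.11 in place of -0.28. With each pig left out the difference ran from -0.067 to 0.13 for COX7A1 over COX7A2, from -0.051 to 0.57 for NDUFA4L2 over NDUFA4 and from -0.0064 to 0.061 for ATP5MC1 over ATP5MC3; the cause was not tested. The median log2FC and the complex sums moved by less than the SD between pigs, a wide margin that leaving out 1 pig can hardly pass; their sign turned to above 0 without the 6 pigs, and that of some sums with 1 pig left out. Of the 32 named members tested, the log2FC turned sign in 21 without the 6 pigs (SDHD from -0.20 to 0.077, COX7C from -0.14 to 0.11, NDUFS1 from -0.12 to 0.16), in 13 with at least 1 single pig left out, and in 2 under another scaling, filter, covariate or tool. With 6 pigs a group, differences below about the printed intervals were not detectable.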
